A study of Caenorhabditis elegans with 2 samples.

Results

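The nuclear genes for the proteins of the mitochondrial ribosome were examined for chromatin occupancy by B0019.2 in Caenorhabditis elegans. Members were all protein-coding genes whose name begins with mrpl (large subunit) or mrps (small subunit) in the Ensembl WBcel235 annotation. The choice was by name and not by any measured value, though earlier results of these data were known. They numbered 70 of 19973 protein-coding genes on the nuclear chromosomes, 41 mrpl and 29 mrps. Occupancy was read from deposited ChIP-seq peak lists (chromatin immunoprecipitation with sequencing) for strain RW12288, in which the allele st12288 fuses TY1, EGFP and 3xFLAG tags to B0019.2. Young adult worms aged 63.5 h, synchronised as starved L1 larvae after bleaching, were used whole. For precipitation the sample description gives an anti-GFP antibody, which is followed here, while the antibody label names B0019.2. There was 1 group of 2 libraries, biological replicates 1 and 2, all from this edited strain, and control libraries were not analysed here. Since whole animals were pooled, strong occupancy in a few cells and weak occupancy in many cannot be told apart.

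Mitochondria carry their own ribosome, which makes the few respiratory chain subunits encoded in mitochondrial DNA. Its proteins are encoded in the nucleus, made on cytosolic ribosomes and imported, so that nuclear and mitochondrial gene expression meet in its assembly. Many of its proteins descend from bacterial ribosomal proteins, and others are found only in mitochondria. In C. elegans the family is known for mrps-5, whose knockdown lengthens life and induces the mitochondrial unfolded protein response. Of the 70 members, RefSeq (assembly WBcel235) gave 69 a product name with the word ribosomal, the exception being mrps-27. Gene names and products did not always match, since RefSeq names the product of mrps-18C as the large subunit protein uL3m and that of mrpl-34 as mL43. The genes mrps-18C and mrps-18.C are separate loci.

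A gene was counted as having a peak when a peak summit lay in its window, from 1000 bp before to 200 bp after the gene start. The main list held the 900 peaks of the deposited conservative list, which was made from both libraries together at an irreproducible discovery rate (IDR, a measure of how poorly peak ranks agree between inputs) of at most 0.01. In it, 6 of the 70 members had a summit, namely mrpl-12, mrpl-15, mrpl-49 and mrpl-55 of the large subunit and mrps-6 and mrps-17 of the small subunit. The DNA under 4 of these summits is shown, so that the letters counted further on can be read in place. The windows of mrpl-15 and mrps-6, which hold GCGC but not GCAAAC, are not printed. Each line gives 101 bases centred on the summit, 5′ to 3′ on the strand of the mrp gene, from the RefSeq genome of assembly WBcel235, whose coordinates are those of ce11. Capitals mark the letters GCAAAC (or its complement GTTTGC) and GCGC. The windows are chrIII:10707187-10707287 for mrpl-12 (plus strand), chrV:12728420-12728520 for mrpl-49 (plus strand), chrIV:443815-443915 for mrpl-55 (plus strand) and chrIII:6431896-6431996 for mrps-17 (minus strand).
mrpl-12: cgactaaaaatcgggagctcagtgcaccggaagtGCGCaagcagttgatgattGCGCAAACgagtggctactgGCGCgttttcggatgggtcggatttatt
mrpl-49: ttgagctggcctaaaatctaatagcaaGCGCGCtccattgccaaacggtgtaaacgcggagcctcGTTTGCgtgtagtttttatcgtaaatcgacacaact
mrpl-55: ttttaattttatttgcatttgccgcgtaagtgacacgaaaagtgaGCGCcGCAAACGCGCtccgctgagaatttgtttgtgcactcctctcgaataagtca
mrps-17: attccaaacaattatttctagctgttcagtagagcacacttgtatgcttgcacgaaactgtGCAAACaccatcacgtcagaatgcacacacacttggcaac

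The 6 members were 8.57% of the family, against 3.84% of all protein-coding genes. Many genes have no candidate peak at all, so the share was also taken over genes whose window held at least 1 of the 55591 ranked candidates from which the main list was drawn. By that count it was 6 of 57 members (10.5%), against 7.39% of 10361 protein-coding genes. No enrichment test was made, and 10.5% beside 7.39% is near the background and is not read as a result about the family. The genes of the cytosolic ribosome, chosen as the contrast by names beginning with rpl or rps and a number, had a summit in 35 of 78 cases (44.9%), or 35 of 71 with a candidate (49.3%). The cytosolic count was 23 of 47 for rpl and 12 of 31 for rps, and the mitochondrial count was 4 of 41 for mrpl and 2 of 29 for mrps. The difference between the families was not tested.

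**Figure D1:**
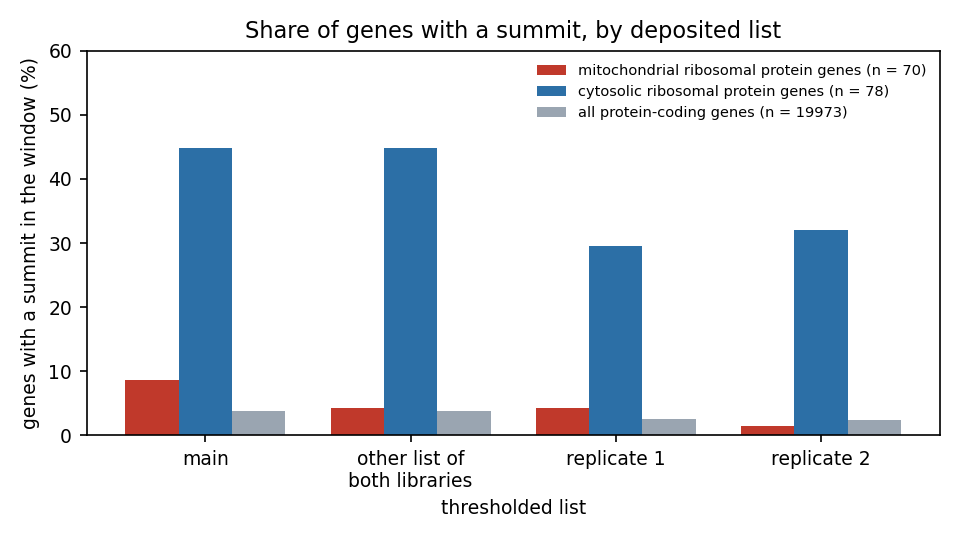
Share of genes (%, vertical axis) with a peak summit in the window in each of the 4 deposited thresholded lists (horizontal axis), for mitochondrial ribosomal protein genes (red), cytosolic ribosomal protein genes (blue) and all protein-coding genes (grey). In the main list the bars stand at 8.57%, 44.9% and 3.84%; in the list of replicate 2 the mitochondrial bar, at 1.43%, is below the grey one at 2.44%.

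Among large subunit genes, mrpl-15 (WBGene00022373), whose RefSeq product is uL15m, had the strongest peak. In ce11 coordinates it spanned 1435513 to 1435782 of chromosome I, with its summit 631 bp upstream of the gene start and a signal value of 133. The signal value is the value the authors gave each peak and has no stated scale, so values are compared only within a list. This peak ranked 218th of 900 in the main list. In the lists of the single libraries it had a signal value of 67.3 in replicate 1 and 63.5 in replicate 2, with summits 7 bp to either side of the pooled one. No other gene of any class had this summit in its window, and mrpl-15 was the only member with a summit in the thresholded lists of both libraries.

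The gene mrpl-12 (WBGene00012361) encodes the stalk protein of the large subunit, where translation factors dock. Its peak ranked 396th at a signal value of 101 and spanned 10707102 to 10707371 of chromosome III. The summit lay 524 bp upstream of mrpl-12, but only 209 and 215 bp upstream of the oppositely directed genes Y39A1A.22 and Y39A1A.21. In replicate 1 the candidate 23 bp away had a signal value of 67.8 and was in that library's thresholded list. In replicate 2 the candidate 35 bp away had 30.8 and a −log10 IDR of 0.92, short of the threshold of 2 (an IDR of 0.01).

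The other large subunit peaks were lower. The gene mrpl-49 (WBGene00011247), whose RefSeq product mL49 carries the letter for mitochondria-specific proteins, had a peak on chromosome V at 12728335 to 12728604 with a signal value of 76.8, ranked 686th. Its summit lay 161 bp upstream of mrpl-49 and 358 bp upstream of rpl-28, a gene of the cytosolic large subunit that is transcribed away from it. This 1 summit therefore counts once in each family. The candidates nearest to it had signal values of 34.9 in replicate 1 and 39.4 in replicate 2 (−log10 IDR 0.58 and 0.29), and neither passed. A second candidate of mrpl-49, at position -789 relative to its start and with a signal value of 65.8 in the ranked list, was not in the main list. In replicate 2 the strongest candidate of mrpl-49 lay near that second position, at -810, with a signal value of 42.5 and a −log10 IDR of 1.87.

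The gene mrpl-55 (WBGene00022045) had the weakest of the 6 peaks, on chromosome IV at 443730 to 443999, with a signal value of 67.7 and rank 822nd. Its summit was 120 bp upstream, the closest to a gene start among the 6, and lay in the window of no other gene. A candidate 24 bp away had a signal value of 45.1 in replicate 1, and replicate 2 had no candidate in the window.

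In the small subunit, mrps-17 (WBGene00015487, product uS17m) had a peak on chromosome III at 6431811 to 6432080 with a signal value of 84.9, ranked 569th. The summit was 148 bp upstream of mrps-17 and 232 bp upstream of the divergent gene txdc-9. Signal values were 45.5 in replicate 1 and 36.3 in replicate 2, each 4 bp from the pooled summit. The gene mrps-6 (WBGene00020037, product bS6m) had a peak on chromosome I at 4174933 to 4175202 with a signal value of 75.3, ranked 721st. Its summit was 294 bp upstream of mrps-6 and 251 bp upstream of rpn-8, a lid subunit gene of the proteasome, which was the nearer start. The snoRNA gene R12E2.17 held the same summit in its window. The candidates near it had signal values of 45.9 in replicate 1 and 30.7 in replicate 2. Neither mrps-6 nor mrps-17 was in a single library's thresholded list.

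**Figure D2:**
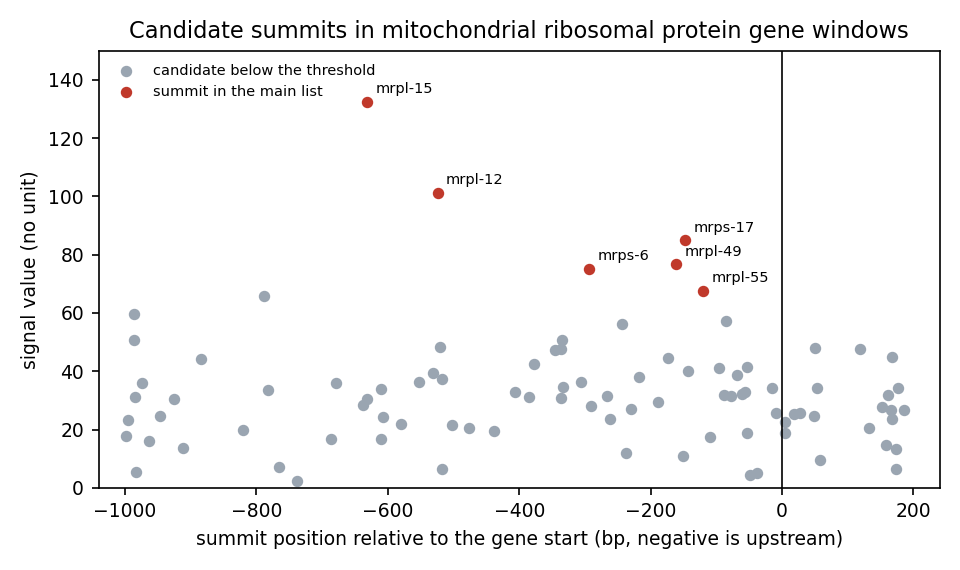
Signal value (vertical axis, no unit) against the position of the summit relative to the gene start (horizontal axis, bp) for the 93 candidates in the windows of 57 members; a candidate in 2 members' windows is drawn for each. The 6 summits of the main list (red, named) lie 120 to 631 bp upstream with signal values from 67.7 to 133; grey points did not reach the main list.

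The peak of mrpl-15 was above the upper quartile of the main list (131), and those of mrpl-49, mrpl-55 and mrps-6 were below its lower quartile (77.2). The members' median signal value was 80.9, against 95.7 over the 900 peaks of the main list and 107 over the strongest peaks of all 766 protein-coding genes with a summit. Only mrpl-15 and mrpl-12 exceeded the median of the main list. For the 35 cytosolic genes the median was 127. The strongest of these were rpl-15 (565), rpl-3 (547), rpl-35 (381) and rpl-20 (283) in the large subunit. In the small subunit they were rps-24 (385), rps-23 (261), rps-20 (195) and rps-28 (173). Each of these 8 exceeded mrpl-15 and was in the lists of both libraries, and in all 19 of the 35 cytosolic genes were in both. For the mitochondrial family that count was 1 of 6, and over all genes with a main summit it was 361 of 766.

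The other thresholded list made from both libraries held summits for 3 members (mrpl-12, mrpl-15 and mrps-17), or 4.29%, against 3.79% of all protein-coding genes and 44.9% of cytosolic genes. Missing from it were mrpl-49, mrpl-55 and mrps-6, the members with the lowest signal values. The list of replicate 1 held summits for mrpl-12, mrpl-15 and mrps-28 (4.29%, background 2.61%). The list of replicate 2 held mrpl-15 alone (1.43%, background 2.44%). Cytosolic genes had a summit in 23 cases in replicate 1 and 25 in replicate 2.

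**Figure D3:**
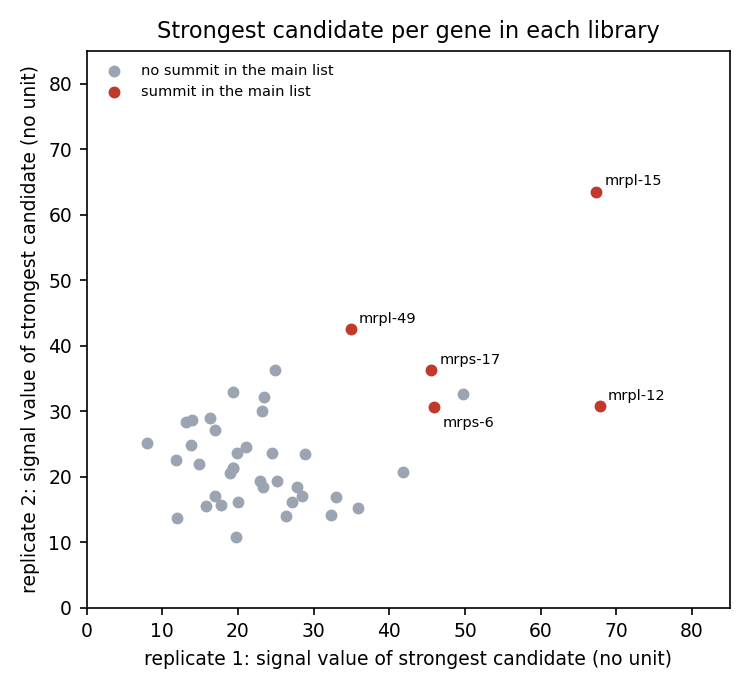
Signal value of the strongest candidate in the window in replicate 1 (horizontal axis) and replicate 2 (vertical axis), no unit, for the 42 members with a candidate in both libraries; the 2 candidates of a gene may lie at different positions. Members with a summit in the main list are red and named; mrpl-15 stands at 67.3 and 63.5, highest in replicate 2, mrpl-12 is highest in replicate 1 at 67.8, and mrpl-55 is absent because replicate 2 had no candidate.

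The seventh member with a summit in any thresholded list was mrps-28 (WBGene00012830). Its peak in replicate 1, on chromosome V at 19643154 to 19643413, reached a signal value of 49.7, and its summit was 955 bp upstream. The snoRNA gene Y43F8C.22 had its start 97 bp from this summit. In the other list of both libraries the peak summit (signal value 69.3) was 1020 bp upstream of mrps-28, 20 bp outside the window.

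A further 4 members had a main summit just beyond the window. The summit near mrps-21 was 1007 bp upstream of the gene (signal value 105) and lay in the windows of jmjd-1.2, a histone demethylase gene, and F29B9.11. That near mrpl-23 was 1030 bp upstream (82.7) and lay in the windows of a snoRNA gene, T08B2.13, and a pseudogene. That near mrpl-40 was 1056 bp upstream (135), lay in the window of attf-3 and was in all 4 thresholded lists. That near mrpl-48 was 1611 bp upstream (103), in the window of vps-37, an ESCRT-I subunit gene. A window of 2000 and 500 bp thus gave 10 members in place of 6, while the count over all protein-coding genes went from 766 to 992, and the added summits each lay in the window of a gene other than the member.

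Of the remaining 63 members, 51 had at least 1 ranked candidate below the threshold, with signal values of the strongest from 13.4 to 59.5 and a median of 34.0. The highest was that of mrpl-38 (59.5, 986 bp upstream, −log10 IDR 1.38), just below the weakest member peak in the main list, that of mrpl-55 (67.7, −log10 IDR 2.03). Next were mrpl-28 (57.2), mrps-35 (56.3), mrpl-11 (50.7) and mrps-18A (50.6). In this ranked list only mrpl-38 and mrps-35 reached a −log10 IDR of 1, and in the other ranked list of both libraries mrpl-28 did too (1.07). In replicate 1 that value was reached by mrpl-23 (2.00), mrps-21 (1.82), mrpl-45 (1.67) and mrpl-28 (1.05). It was also reached there by mrps-28, with a peak in that library's list. The replicate 1 candidates of mrpl-23 and mrps-21 lay 990 and 963 bp upstream, near the main summits given above as just beyond the window. That of mrpl-23 was not in that library's thresholded list. In replicate 2 the value was reached by none of the members without a main summit. In single libraries the strongest candidate of mrpl-38 had 32.9 in replicate 1 and 16.9 in replicate 2, and that of mrps-35 had 24.9 and 36.3. For mrpl-28 the values were 23.4 and 32.2, for mrpl-11 28.9 and 23.4, and for mrps-18A 19.4 and 32.9. Values of the 2 libraries come from separate lists and are not compared with each other. For mrpl-38 and mrpl-28 the candidates of the libraries lay over 100 bp apart. For mrps-5, named for its role above, the strongest candidate had a signal value of 33.6 in the ranked list, 8.02 in replicate 1 and 25.1 in replicate 2, the last 2 at different positions (+66 and -778 relative to the start).

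The large subunit genes with a candidate below the threshold were, from the highest to the lowest signal value, mrpl-38, mrpl-28, mrpl-11, mrpl-10, mrpl-18, mrpl-53, mrpl-45, mrpl-39, mrpl-44, mrpl-51, mrpl-35, mrpl-40, mrpl-32, mrpl-17, mrpl-1, mrpl-34, mrpl-37, mrpl-9, mrpl-42, mrpl-54, mrpl-48, mrpl-47, mrpl-24, mrpl-4, mrpl-46, mrpl-23 and mrpl-30. The small subunit genes were, in the same order, mrps-35, mrps-18A, mrps-22, mrps-7, mrps-18.C, mrps-27, mrps-23, mrps-16, mrps-15, mrps-10, mrps-12, mrps-25, mrps-31, mrps-5, mrps-21, mrps-9, mrps-24, mrps-30, mrps-2, mrps-14, mrps-18B, mrps-18C, mrps-33 and mrps-34. The ranked list held no candidate in the windows of 12 members, which were mrpl-2, mrpl-13, mrpl-16, mrpl-19, mrpl-20, mrpl-21, mrpl-22, mrpl-36, mrpl-41, mrpl-50, mrps-11 and mrps-26. Of these, mrpl-16, mrpl-19, mrpl-22, mrps-11 and mrps-26 had none in the ranked list of either library. With mrps-28, 13 of 70 members lacked a ranked candidate, and 81.4% had one, against 51.9% of all protein-coding genes and 91.0% of cytosolic genes.

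The strongest candidate of a member had a median signal value of 34.7 (quartiles 29.5 and 47.5, 57 members). Over all 10361 genes with a candidate the median was 32.9 (quartiles 25.6 and 42.8). For cytosolic genes it was 72.6 (quartiles 44.9 and 123, 71 genes). The 2 mitochondrial subunits were close to each other, at 38.0 for mrpl and 34.2 for mrps. Of the 42 members with a candidate in both libraries, the strongest candidates of the libraries lay within 100 bp of each other in 19 (45.2%), against 52.8% of 5784 protein-coding genes and 49 of 66 cytosolic genes (74.2%).

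**Figure D4:**
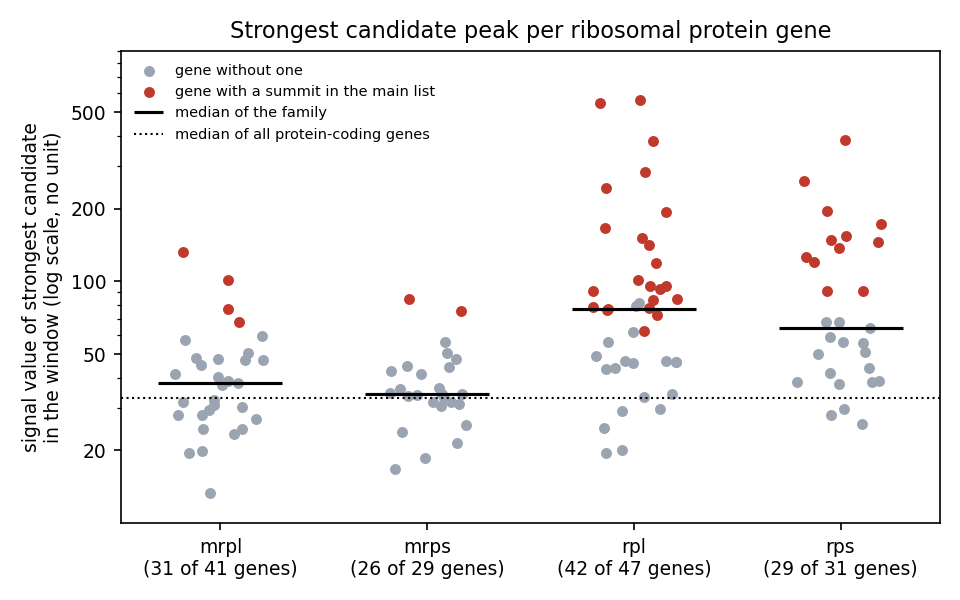
Signal value of the strongest ranked candidate in the window (vertical axis, log scale, no unit) for each gene of the mrpl, mrps, rpl and rps families (horizontal axis, with the number of genes that had a candidate). Red points are genes with a summit in the main list, black lines family medians (38.0, 34.2, 77.2 and 64.1) and the dotted line the median of all protein-coding genes (32.9).

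Members were also grouped by whether their human namesakes have bacterial relatives, by number (mrpl up to 36, mrps up to 21, and mrps-24 and mrps-28). In the group with bacterial relatives 4 of 43 had a main summit (mrpl-12, mrpl-15, mrps-6 and mrps-17), and among mitochondria-specific members 2 of 27 (mrpl-49 and mrpl-55). The median of the strongest candidate was 34.2 in the first group and 39.0 in the second. The grouping by number misplaces single genes, such as mrpl-34, whose RefSeq product is the mitochondria-specific mL43.

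Gene arrangement differed between the families. A divergent protein-coding gene starting within 1000 bp was found for 26 of 70 members (37.1%), against 17.7% of all protein-coding genes and 60.3% of cytosolic genes. Of the 26, 4 had a main summit (15.4%, against 10.7% of all divergent genes), which were mrpl-12, mrpl-49, mrps-6 and mrps-17. Of the 44 without a divergent gene, mrpl-15 and mrpl-55 had one (4.55%, against 2.35% of all such genes). The cytosolic shares were 46.8% with a divergent gene and 41.9% without. All these shares include genes without a ranked candidate, and the differences were not tested. In each of the 4 divergent cases the summit lay between the starts and in both windows, so that it cannot be assigned to either gene. When a summit was counted for the closest protein-coding start alone, mrpl-15, mrpl-49, mrpl-55 and mrps-17 kept theirs, and mrpl-12 and mrps-6 did not.

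Many C. elegans genes lie in operons, clusters transcribed from 1 promoter ahead of the first gene, with short gaps inside. The annotation used here names no operons, so a close upstream neighbour was defined as a protein-coding gene on the same strand ending between 1000 bp before and 200 bp after the member's start. Such a neighbour was found for 35 of 70 members, against 30.1% of all protein-coding genes and 30.8% of cytosolic genes. The median gap was 113 bp for these members and 344 bp over all genes with such a neighbour, and 19 of the 35 gaps (54.3%) were of 50 to 150 bp, against 1383 of 6006 over all genes. Of these 35 members only mrpl-49, whose neighbour R11D1.13 ended 995 bp away, had a main summit (2.86%, against 3.10% of all such genes). Among the 35 members without a close neighbour, 5 had one (14.3%, against 4.15% of all such genes). For cytosolic genes the shares were 41.7% with a close neighbour and 46.3% without. Genes without a ranked candidate are counted in all these shares, and 81.4% of members but 51.9% of all genes had one. The member shares rest on few genes, and the differences were not tested.

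For 34 members with a close neighbour and no summit of their own, the run of same-strand genes was followed back to its first gene. The first gene had a main summit in 6 cases (17.6%, against 6.07% of 5820 such protein-coding genes and 7.14% of 14 such cytosolic genes). These were nrde-2, a nuclear RNAi gene, ahead of mrps-14 (signal value 251) and F29B9.11 ahead of mrps-21 (105). The others were clsp-1 ahead of mrpl-54 (103), vps-37 ahead of mrpl-48 (103), the proteasome gene rpn-3 ahead of mrpl-32 (102) and spd-1, a spindle midzone gene, ahead of mrpl-38 (90.3). The summits of F29B9.11 and vps-37 are the same peaks given above as just beyond the windows of mrps-21 and mrpl-48. The gap between the member and its upstream neighbour was 94 to 114 bp for mrpl-48, mrps-14 and mrps-21, and 374, 411 and 723 bp for mrpl-54, mrpl-32 and mrpl-38. Whether these genes are transcribed together was not tested, nor was the share of 17.6%, which rests on 6 cases. The members mrpl-1 and mrps-24 shared a candidate between their starts, 266 and 78 bp upstream, with a signal value of 31.6 and below the threshold.

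The family was spread over 22 genes on chromosome III, 15 on I, 12 on II, 11 on IV, 10 on V and 0 on X. Of all 19973 protein-coding genes, 2640 were on III, 2878 on I, 3449 on II, 3281 on IV, 4994 on V and 2731 on X.

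The windows of the 6 summits were searched on both strands for 9 short motifs. These were the GAGA repeat GAGAGA, the E2F-type word TTCCCGC, the E-box CACGTG, the TATA box TATAAA, the GATA-type word TGATAA, the splice acceptor word TTTCAG, the GC box GGGCGG, the word CGCGAA and the T run TTTTTTTT. None of them occurred within 50 bp of the 6 member summits. At least 1 occurred at 51.0% of the 726 main summits in a window of any gene, at 26.5% of the 34 cytosolic summits and at 44.9% of all candidates. Singly, over the 900 main summits, CGCGAA was the most frequent at 15.4%, followed by GAGAGA at 11.7% and TTTCAG at 7.78%, and the other 6 were at 2.78% to 5.33%. Within 100 bp, 5 of the 6 member windows held at least 1, as did 73.0% of all main windows.

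The capitalised letters were chosen after the windows of the members were seen, and their counts in the members are a description only. GCAAAC, on either strand, occurred within 50 bp of the summit for mrpl-12, mrpl-49, mrpl-55 and mrps-17, and not for mrpl-15 or mrps-6. At the other 894 main summits it occurred in 10.5%, against 5.84% of candidates below the threshold and 3.36% of windows centred 300 bp to either side of those summits. GCGC occurred at every member summit but that of mrps-17. It occurred at 55.6% of the other main summits, 13.9% of candidates below the threshold and 10.3% of the windows to either side. At the 84 distinct candidates of members below the threshold the shares were 11.9% for GCAAAC and 20.2% for GCGC. Median GC content was 45.5% at member summits, 47.5% at other main summits and 51.0% at the cytosolic summits. In the cytosolic set GCAAAC occurred in 5.88% and GCGC in 70.6%. That set includes the summit that rpl-28 shares with mrpl-49, whose window is printed above and holds both. Median GC content was 40.6% at candidates below the threshold, 38.6% at those of members and 35.6% to either side. The part of GC content in these shares was not tested.

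Other genes of mitochondrial translation and upkeep were taken from lists of gene names. Of 22 listed genes for mitochondrial translation factors, aminoacyl-tRNA synthetases and dap-3, a further ribosomal protein gene, 16 were found in the annotation and 1 had a main summit (6.25%). This was ears-2, a glutamyl-tRNA synthetase gene, whose summit lay 22 bp before the gene start at a signal value of 111. Of 24 genes for mitochondrial DNA upkeep, protein import and protein quality control, all of them found, 3 had a main summit (12.5%). These were hsp-60, the mitochondrial chaperonin, with a signal value of 208, ddp-1, a small import chaperone, with 158, and tomm-20, an import receptor, with 83.9. Both shares stand beside 3.84% of all protein-coding genes. Over genes with a ranked candidate they were 1 of 9 (11.1%) and 3 of 18 (16.7%), beside 7.39%. They rest on few genes and were not tested.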

How the data were processed

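Peak lists on assembly ce11 from 2 ChIP-seq libraries were used. Chromatin was sonicated to 200 to 800 bp, per the labels. For the aligner and peak caller, nothing is given in the sources used here. Deposited by the authors were a thresholded and a ranked list for each library, and 2 of each for both libraries together. Column 7 of each holds the authors' signal value, with no stated scale. Ranked lists as deposited carry a further column, the global IDR as −log10. Of the 2 ranked lists for both libraries, the one used was that in which more main peaks reached 2 on that scale. In it all 900 did, and 88 further candidates that did were not in the main list. The ranked lists' 16 columns of values per input were left aside. Depth is unknown, because no file gives counts. Most main peaks (91.6%) had the full width of 270 bp.

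Genes came from Ensembl release 115 (WBcel235). The start codons of all 70 members read as methionine in the RefSeq genome used. Members and lists were chosen with earlier results of these data known. Members with a summit in any thresholded list, the 5 strongest without one, the 4 strongest rpl and 4 strongest rps genes, genes sharing a named summit and companion genes with a main summit were named. Outside this rule, and after their values were seen, mrps-5, the members with a summit just beyond the window and the first genes of same-strand runs were added. Results are counts, shares and medians, with no test. Summit assignment was tested on simulated data. Alternatives were other lists, windows, gene starts, assignments and backgrounds. Python 3.11.15, numpy 2.4.6, pandas 2.3.3 and matplotlib 3.10.9 were used.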

Additional observations from a re-analysis of the deposited data

How the results depend on the processing

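The count of 6 members was 3 in the other deposited list, 2 among main peaks above the median signal value, 1 to 3 in the lists of single libraries (1 without replicate 1, 3 without replicate 2) and 10 with the window of 2000 and 500 bp. With the window of 500 and 100 bp, nearest gene starts, any transcript start and any base of the peak it was 4 to 9. The 35 cytosolic genes became 23 above that median, 23 to 25 in single libraries and 20 with nearest gene starts, above the mitochondrial count in every setting run. The 766 protein-coding genes became 491 above that median, 487 to 521 in single libraries and 992 with the wide window, and their share was 3.84% of all genes in place of 7.39% of those with a candidate. The translation companions numbered 0 to 1 in single libraries. The median signal value of members' peaks, 80.9, was 101 in the other list, 117 above that median, 63.5 to 67.3 in single libraries (another scale), 76.0 and 93.1 with the narrow and wide windows and 84.9 with any base of the peak. Motifs occurred in 5 windows within 100 bp, in place of 0, where windows are longer. Causes of the other changes were not tested. No paired analysis was possible because there is 1 group. Without counts the error of a peak's signal value could not be given.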
